A study of Mus musculus with 5 samples.

Results

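A set of 10 genes of the G1 phase of the cell cycle was followed in lenses of embryonic day 14 mice with and without N-myc: the D-type cyclins Ccnd1, Ccnd2 and Ccnd3, the cyclin-dependent kinases Cdk2, Cdk4 and Cdk6, the kinase inhibitors Cdkn1b, Cdkn1c and Cdkn2c, and the growth arrest gene Gas1. They were taken by gene symbol from a count table of 12370 symbols, in which all 10 were present, and all 10 were among the 12035 genes that passed the filter on low counts. The 2 knockout libraries came from embryos with Mlr10-Cre+/- and N-mycloxP/loxP, in which Cre recombinase is made in the lens. The 3 control libraries came from Cre -/- embryos that were N-mycloxP/loxP, with or without c-mycloxP/loxP, and the labels do not say which control library had which genotype. Floxed N-myc was thus common to both groups, and Mlr10-Cre was carried by the knockouts alone, so that the deletion and the transgene cannot be told apart in any comparison. Lysates of single animals were pooled before RNA was purified, and the labels do not state how many animals made up a pool.

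The lens grows from a sheet of dividing epithelial cells at its front, and cells at the equator leave the cycle for good when they elongate into fibres. D-type cyclins bind Cdk4 or Cdk6, and the cyclin E partner Cdk2 acts next; together they phosphorylate the retinoblastoma proteins and release the E2F factors that switch on genes of DNA synthesis. The products of Cdkn1b (p27Kip1) and Cdkn1c (p57Kip2) hold the kinases inactive in cells that leave the cycle, and mouse lenses that lack both fail to arrest their fibre cells. MYC proteins are known to act on this step, with Ccnd2 and Cdk4 among their textbook targets and Cdkn1b among the genes they oppose.

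Library totals lay between 13162384 and 13746416 counts. Mycn, the deleted gene, stood at 57.3 and 81.9 CPM (counts relative to the library total, scaled for library composition) in the knockout libraries, against 162, 148 and 140 CPM in the controls, and fell 2.16-fold (log2 fold change -1.11, SE 0.15, edgeR quasi-likelihood adjusted p = 0.0097). Without control replicate 2 its adjusted p was 0.056. The related Myc gene did not pass (log2 fold change 0.63, edgeR adjusted p = 0.073), and neither did Mycl (0.21, 0.28). Max, the dimer partner of MYC proteins, was at 42.1 and 43.8 CPM in the knockouts and 52.9, 59.9 and 57.6 CPM in the controls and fell 1.32-fold (edgeR adjusted p = 0.030). It did not pass without control replicate 2 (0.12), control replicate 3 (0.095) or knockout replicate 1 (0.16). Lens markers were present in each library: their 12 genes summed to 79380 and 92900 CPM in the knockouts and to between 85060 and 106700 CPM in the controls. Knockout replicate 1 stood apart in its markers of periocular mesenchyme, whose 13 genes summed to 2420 CPM there, against 786 CPM in knockout replicate 2 and 613 to 904 CPM in the controls.

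Of the 10 G1 genes, 1 fell and 2 rose in the knockout lenses, where 8.51% and 7.98% of all tested genes did (16.5% in either direction). Ccnd2, the most abundant cyclin of the group, fell 1.42-fold, Cdk2 rose 1.35-fold, and Gas1 rose 2.47-fold. The other 7 did not pass the test at an adjusted p of 0.05 (edgeR, adjusted over all genes tested). Without control replicate 2 or control replicate 3 none of the 10 passed, and only Gas1 did when control replicate 1 or knockout replicate 1 was left out. The CPM ranges of the 2 groups did not overlap for 5 of the 10, namely Ccnd2, Cdkn1b, Cdk2, Cdkn1c and Gas1, against 52.5% of all tested genes, so that this share was near the background; 2 of them were lower in the knockouts (27.0% of all tested genes) and 3 higher (25.5%). Of all calls 48.4% were higher in the knockouts, compared with 70.3% under scaling by totals alone and 37.1% once length and GC trends were taken out. The median log2 fold change of the 10 was -0.06, against 0.0021 over all tested genes. These lenses were measured in bulk, so fewer cells of a type and less RNA per cell cannot be told apart.

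**Figure D1:**
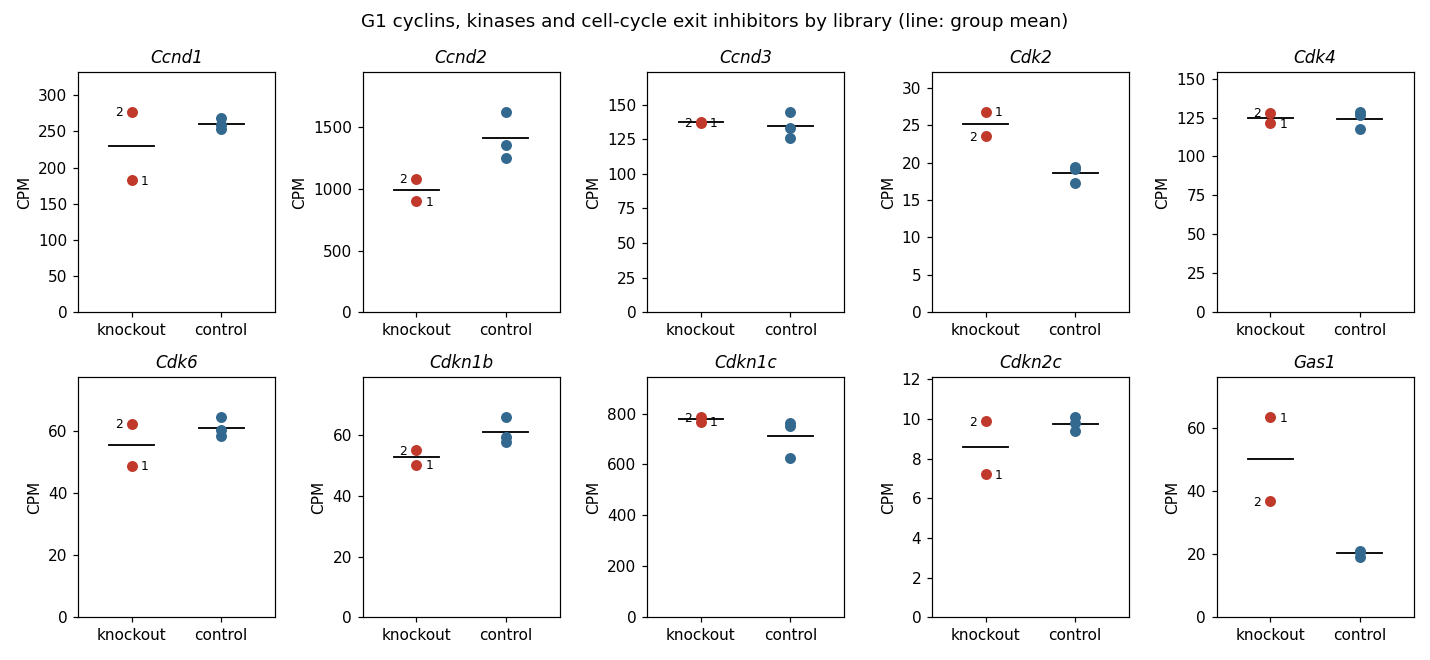
CPM of each of the 10 genes (vertical axes, from 0) in the 2 knockout libraries (red, numbered by replicate) and the 3 control libraries (blue), with group means as lines. Gas1 stood at 63.5 and 36.9 CPM in the knockouts against 19.2 to 20.9 CPM in the controls, and Ccnd2 at 901 and 1082 CPM against 1253 to 1624 CPM, while the points of Ccnd3 and Cdk4 overlapped between the groups.

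Levels of different genes were compared per kilobase of the longest protein-coding transcript. In the knockout lenses Cdkn1c led with 409 CPM per kb and Ccnd2 followed with 157 CPM per kb. In the controls the same 2 led, with 375 CPM per kb for Cdkn1c and 223 CPM per kb for Ccnd2. An inhibitor of the kinases and a cyclin that activates them were thus the most abundant transcripts of the group in both genotypes. Ccnd1, Ccnd3 and Cdk4 came next, with 61.4, 64.9 and 60.8 CPM per kb in the knockouts and 69.6, 63.7 and 60.5 CPM per kb in the controls. Ccnd1 lay on either side of the other two in the knockouts, at 48.8 and 74.1 CPM per kb, and above both in each control library, while the ranges of Ccnd3 and Cdk4 overlapped in the controls. The other 5 genes lay between 3.47 and 16.9 CPM per kb in the knockouts and between 3.95 and 13.4 CPM per kb in the controls. Among these, Gas1 stood above Cdkn1b and Cdk2 in both knockout libraries and below both in all 3 control libraries.

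The D-type cyclins carry growth signals into the cycle, and 1 of the 3 genes passed the test. Differences in change between the 3 genes were tested only as shares of their sum. Ccnd2, which encodes cyclin D2 (chromosome 6, 127125162 to 127152193, minus strand, GRCm38), had 12588 and 15085 counts in the knockout libraries and 20719, 17889 and 16508 in the controls. These corresponded to 901 and 1082 CPM in the knockouts, against 1624, 1358 and 1253 CPM in the controls, so that both knockouts lay below each control. The log2 fold change was -0.51 (SE 0.14, 95% interval -0.83 to -0.19, edgeR adjusted p = 0.043). The fall did not pass without control replicate 1 (-0.39, edgeR adjusted p = 0.058), control replicate 2 (-0.52, 0.12), control replicate 3 (-0.58, 0.069) or knockout replicate 1 (-0.38, 0.24), and 8 of 14 alternatives called it. Without knockout replicate 2 it passed (-0.65, 0.028), so that the direction was kept under each single library left out and the call under 1 of the 5.

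Ccnd1 (cyclin D1) stood at 182 CPM in knockout replicate 1 and 277 CPM in knockout replicate 2, against 269, 259 and 253 CPM in the controls. The first knockout library lay below each control and the second above each of them. The log2 fold change was -0.18 (SE 0.16, 95% interval -0.54 to 0.18, edgeR adjusted p = 0.44). It was 0.09 without knockout replicate 1 (adjusted p = 0.65) and -0.51 without knockout replicate 2 (adjusted p = 0.013), so that its direction and its call rested on which knockout library was used. Ccnd3 (cyclin D3) had 137 and 137 CPM in the knockouts and 145, 133 and 125 CPM in the controls, with a log2 fold change of 0.03 (SE 0.086, 95% interval -0.17 to 0.22). In this fit the interval corresponds to ratios from 0.889 to 1.17.

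The mix of D-type transcripts within a library does not depend on how libraries are scaled. Per kilobase, Ccnd2 made up 55.6% and 55.2% of D-type transcripts in the knockouts, against 64.6%, 61.8% and 60.9% in the controls. The groups did not overlap, and the means differed by -7.08 percentage points. A two-sided exact permutation test, which doubles the one-sided p, gave p = 0.2. That is the smallest p this test allows with 2 against 3 libraries, so it cannot pass 0.05 here. Ccnd3 made up 25.4% and 20.9% in the knockouts, against 17.3%, 18.2% and 18.3% in the controls. The share of Ccnd1 overlapped between the groups, with 19.0% and 23.9% in the knockouts and 18.1%, 20.0% and 20.8% in the controls. Summed, D-type transcripts stood at 256 and 310 CPM per kb in the knockouts and 397, 347 and 325 CPM per kb in the controls (exact permutation p = 0.2).

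**Figure D2:**
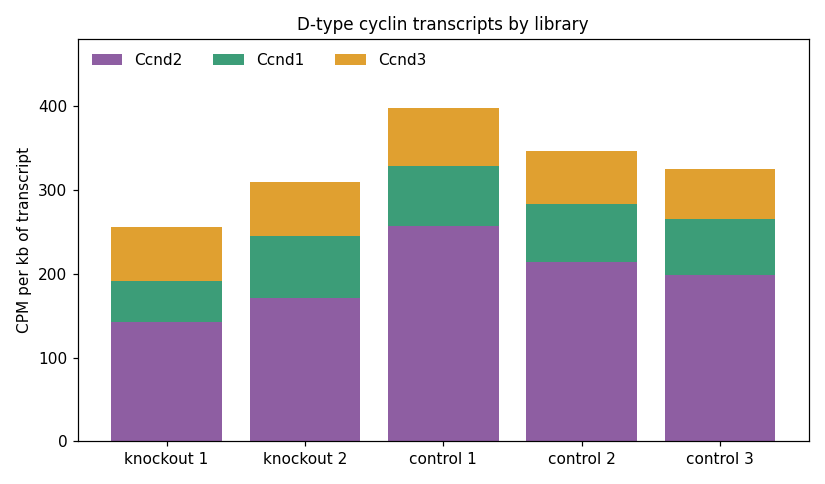
D-type cyclin transcripts in CPM per kilobase of transcript (vertical axis), stacked by gene for the 2 knockout libraries and, to their right, the 3 control libraries. The Ccnd2 part was 142 and 171 CPM per kb in the knockouts and 198 to 257 CPM per kb in the controls, while the Ccnd3 part was 65.0 and 64.7 CPM per kb against 59.4 to 68.5 CPM per kb.

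Of the kinases, Cdk2 rose and the partners of the D-type cyclins did not pass the test. Cdk2 (chromosome 10, 128697939 to 128705031, minus strand, GRCm38) had 374 and 328 counts in the knockouts and 248, 252 and 227 in the controls. It stood at 26.8 and 23.5 CPM in the knockouts, against 19.4, 19.1 and 17.2 CPM in the controls, with both knockouts above each control. The log2 fold change was 0.44 (SE 0.12, 95% interval 0.15 to 0.72, edgeR adjusted p = 0.049), close to the threshold. It did not pass without control replicate 1 (0.47, adjusted p = 0.072), control replicate 2 (0.47, 0.13), control replicate 3 (0.39, 0.15) or knockout replicate 1 (0.34, 0.24), or with DESeq2 (0.44, 0.051). Pmel, a pigment cell gene on the opposite strand whose exons share 34 bases with those of Cdk2, also rose (edgeR adjusted p = 0.030) and had 67 and 126 counts in the knockouts and 23, 41 and 20 in the controls. Reads from the shared bases cannot be assigned without a stated strand setting. The same holds for 589 of the 2961 exonic bases of Gas1 (shared with Gm48488), 625 of 2039 of Cdkn1c (Gm44732), 1100 of 4709 of Ccnd1 (LTO1) and 368 of 13989 of Cdk6 (Gm17590), neighbours that were not analysed here. Ccnd2 shares 368 of 9409 exonic bases with 9330179D12Rik, which had 7 to 13 counts in each library, and 372 with Gm43126. Ccnd3 shares 361 of 8775 with Bysl, which did not pass (log2 fold change -0.16, edgeR adjusted p = 0.27). Pmel was highest in knockout replicate 2, and Cdk2 in knockout replicate 1.

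Cdk4 was at 122 and 128 CPM in the knockouts and 118, 129 and 126 CPM in the controls, and the groups overlapped. Its log2 fold change was 0.01 (SE 0.080, 95% interval -0.18 to 0.19, edgeR adjusted p = 0.96). In this fit the interval corresponds to ratios from 0.884 to 1.14. Cdk6 was at 48.8 and 62.3 CPM in the knockouts and 58.3, 60.4 and 64.5 CPM in the controls (log2 fold change -0.14, SE 0.12, edgeR adjusted p = 0.43). Only knockout replicate 1 lay below the controls. Per kilobase, Cdk4 made up 93.3% and 92.0% of the transcripts of both kinases in the knockouts, against 91.9%, 92.3% and 91.7% in the controls. Exons of Tspan31 on the opposite strand cover 641 of the 3249 exonic bases of Cdk4, and Tspan31 itself did not pass (log2 fold change -0.23, edgeR adjusted p = 0.13).

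The sequence CACGTG, the canonical E-box bound by MYC and MAX dimers, was looked up in the 250 bases before the RefSeq transcription start of the genes, where RefSeq (GRCm38.p6) promoter sequences were given for 7 of the 10 (Ccnd3, Cdk2, Cdk4, Cdk6, Cdkn1b, Cdkn2c and Gas1). It reads the same on both strands. Cdk4 held 4 copies, which began 172, 118, 98 and 11 bases before the start, and Cdk6 held 1, which began 220 bases before it. No copy lay in the windows of the other 5 genes, which says only that these letters are not there. Among all 32851 promoter windows of the same length, 6.02% held at least 1 copy and 7 windows held at least 4. No promoter sequence was given for Ccnd2, the gene that fell, or for Ccnd1 and Cdkn1c. A link between E-boxes and change was not tested. The promoters of Cdk4, with the most copies among the 7 genes, and of the called genes Cdk2 and Gas1 are shown. They run 5′ to 3′ with E-boxes in capitals, at chr10:127063285-127063533 (plus strand) for Cdk4, chr10:128705052-128705179 (minus strand, shortened to the bases free of annotated protein-coding exons) for Cdk2 and chr13:60177536-60177785 (minus strand) for Gas1.
Cdk4: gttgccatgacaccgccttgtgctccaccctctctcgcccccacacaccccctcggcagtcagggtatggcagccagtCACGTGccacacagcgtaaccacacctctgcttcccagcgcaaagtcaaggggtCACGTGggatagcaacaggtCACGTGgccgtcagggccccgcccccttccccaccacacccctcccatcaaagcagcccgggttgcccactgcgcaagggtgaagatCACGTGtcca
Cdk2: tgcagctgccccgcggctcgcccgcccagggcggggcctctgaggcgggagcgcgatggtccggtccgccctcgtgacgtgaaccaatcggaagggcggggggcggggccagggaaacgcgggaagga
Gas1: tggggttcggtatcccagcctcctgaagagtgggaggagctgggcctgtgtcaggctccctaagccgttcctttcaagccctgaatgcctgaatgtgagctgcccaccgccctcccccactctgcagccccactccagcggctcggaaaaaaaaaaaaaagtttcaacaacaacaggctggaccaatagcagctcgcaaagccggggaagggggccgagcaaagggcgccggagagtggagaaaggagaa
A match in these windows is a description of the sequence, and binding was not measured.

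The inhibitors that hold fibre cells out of the cycle did not pass the test in either direction. Cdkn1c (p57Kip2; chromosome 7, 143458339 to 143461050, GRCm38), an imprinted gene and per kilobase the most abundant of the 10, was at 768 and 786 CPM in the knockouts and 624, 765 and 751 CPM in the controls. Both knockouts lay above the controls, by less than the distance between control replicates 1 and 2. The log2 fold change was 0.12 (SE 0.11, 95% interval -0.13 to 0.38, edgeR adjusted p = 0.45), and removal of trends on transcript length and GC content turned it to -0.08. Cdkn1b (p27Kip1) was at 50.2 and 55.0 CPM in the knockouts and 59.3, 57.7 and 65.8 CPM in the controls, so that both knockouts lay below each control. Its log2 fold change was -0.21 (SE 0.095, 95% interval -0.43 to 0.01, edgeR adjusted p = 0.15), and it passed in 0 of 14 alternatives. Over these alternatives the log2 fold change of Cdkn1b ran from -0.28 to -0.0. Per kilobase, Cdkn1c made up 97.3% and 97.2% of the sum of both in the knockouts and 96.2%, 96.9% and 96.5% in the controls, a difference of 0.715 percentage points (exact permutation p = 0.2, the smallest possible).

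Cdkn2c (p18Ink4c), which binds Cdk4 and Cdk6, had the fewest counts of the 10, with 101 and 138 counts in the knockouts and 125, 133 and 124 in the controls. At 7.23 and 9.90 CPM in the knockouts and 9.80, 10.1 and 9.41 CPM in the controls, only knockout replicate 1 lay outside the range of the controls. Its log2 fold change of -0.19 had the widest interval of the genes that did not pass, -0.61 to 0.23 (SE 0.18, edgeR adjusted p = 0.49).

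**Figure D3:**
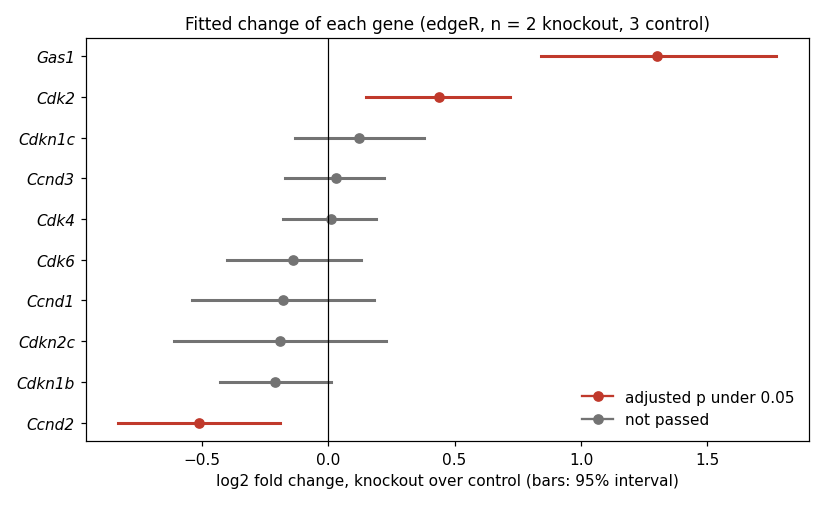
Fitted log2 fold changes of the 10 genes, knockout over control, with 95% intervals (horizontal axis), ordered by size from the highest at the top; red marks an edgeR adjusted p under 0.05. The intervals of Gas1 (0.84 to 1.77), Cdk2 (0.15 to 0.72) and Ccnd2 (-0.83 to -0.19) lay clear of 0, and those of the other 7 genes included it.

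Gas1 showed the largest change of the group. It encodes a membrane-anchored protein named for its expression in growth-arrested fibroblasts, and it also serves as a coreceptor for Hedgehog ligands together with Cdon and Boc. The gene (chromosome 13, 60174405 to 60177365, minus strand, GRCm38) had 887 and 514 counts in the knockouts and 267, 274 and 253 in the controls. It stood at 63.5 and 36.9 CPM in the knockouts, against 20.9, 20.8 and 19.2 CPM in the controls. Both knockouts were above each control, and knockout replicate 1 was 1.72 times as high as knockout replicate 2. The log2 fold change was 1.30 (SE 0.20, 95% interval 0.84 to 1.77, edgeR adjusted p = 0.013). It was 0.86 without knockout replicate 1 (adjusted p = 0.017), and it did not pass without control replicate 2 (1.34, 0.063) or control replicate 3 (1.28, 0.051). The 3 genes whose pattern over the 5 libraries came nearest to that of Gas1 were Sema3f, Samd14 and Arhgef40, with root mean square differences of 0.10, 0.13 and 0.14 on the log2 CPM scale among 10454 genes with a mean of at least 5 CPM. For Ccnd2 they were 1810032O08Rik, Slc35g1 and Mfsd1 (0.026, 0.037 and 0.053), and for Cdk2 Lrrc29, Rmi2 and Sall2 (0.018, 0.024 and 0.024).

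Other genes of the Hedgehog pathway were examined beside Gas1. Of 9 tested, 5 rose and 0 fell, where 7.98% and 8.51% of all tested genes did, with a median log2 fold change of 0.34 (0.0021 over all tested genes), and the 4 others did not pass. Cdon, the second coreceptor, stood at 159 and 165 CPM in the knockouts and 88.7, 82.2 and 80.0 CPM in the controls. It rose 1.94-fold (log2 fold change 0.95, SE 0.080, edgeR adjusted p = 0.0024) and passed in 14 of 14 alternatives. Boc, the third coreceptor, was at 26.7 and 8.47 CPM in the knockouts and 3.14, 4.63 and 4.17 CPM in the controls, and rose 4.41-fold (log2 fold change 2.14, edgeR adjusted p = 0.021). Without knockout replicate 1 its log2 fold change was 1.09 and did not pass (adjusted p = 0.085). The signal transducer Smo rose 1.27-fold, and of the transcription factors of the pathway Gli1 rose 2.42-fold and Gli2 1.29-fold, while Gli3 had a log2 fold change of 0.23 (edgeR adjusted p = 0.11). The receptor Ptch1, itself induced by the pathway, had one of 0.15 (SE 0.083, edgeR adjusted p = 0.22). Fewer of the 9 passed when a library was left out, namely 2 when it was control replicate 1 and 1 when it was control replicate 2, control replicate 3 or knockout replicate 1. Removal of the length and GC trends left 2 that rose and ended the call of Smo (adjusted p = 0.99), and turned Gli2 to -0.09 and Ptch1 to -0.06 on the log2 scale.

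Markers of neighbouring tissues were looked at beside these genes. Over all tested genes, 7.98% rose and 8.51% fell. Of 13 mesenchyme genes, 5 rose. The sums of the 13 were 2420 and 786 CPM in knockout replicates 1 and 2 and 613 to 904 CPM in the controls. Of 9 retina genes, 8 rose, with sums of 355 and 491 CPM in the knockouts and 179 to 295 CPM in the controls. The median log2 fold change of the 9 was 1.96. The largest part of these sums was Sfrp2, the gene of the 9 that did not pass (edgeR adjusted p = 0.081). Sfrp2 stood at 281 and 309 CPM in the knockouts and 261, 178 and 146 CPM in the controls. None of the mesenchyme and retina genes in the table was at 0 in any library. Pdgfra, in the mesenchyme list, is also made by lens epithelium. Gas1 and Boc were higher in knockout replicate 1, as the mesenchyme sum was, and Cdon was about equal in both knockouts. In knockout replicate 2 the mesenchyme sum lay within the range of the controls while Gas1 stood at 36.9 CPM, above each of them, and control replicate 3 had the highest mesenchyme sum and the lowest Gas1 level of the controls. The part of other cell types in the rise of Gas1 was not tested. Of the remaining cell type lists, 1 of 3 pigment cell genes rose and 1 fell, 1 of 7 endothelial genes fell, 1 of 7 macrophage genes rose, and 0 of 3 tested red cell genes and 0 of 2 surface ectoderm genes passed. The endothelial and macrophage lists each had 14.3% called in either direction, against 16.5% of all tested genes. The haemoglobin genes Hba-a1, Hba-a2 and Hbb-bt were listed at 0 in all 5 libraries. Other haemoglobin genes were present in each library. Hbb-y had 697 and 712 counts in the knockouts and 743, 1092 and 711 in the controls. Hba-x had 297 and 224 counts in the knockouts and 327, 346 and 233 in the controls.

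**Figure D4:**
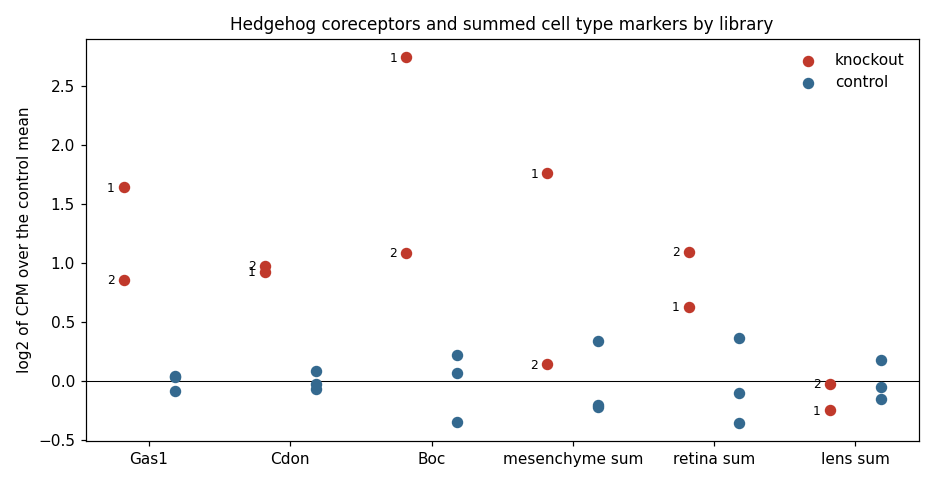
Log2 ratio to the control mean (vertical axis) of the CPM of Gas1, Cdon and Boc and of the summed CPM of mesenchyme, retina and lens marker lists, for the 2 knockout libraries (red, numbered by replicate) and the 3 control libraries (blue). Knockout replicate 1 was highest for Gas1, Boc and the mesenchyme sum (2420 CPM against 786 CPM in knockout replicate 2), and knockout replicate 2 for the retina sum (491 CPM against 355 CPM). Sfrp2, which did not pass the test, made up the largest part of the retina sum in each library.

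Genes that act beside or after the 10 in the passage from G1 to S phase mostly did not pass the test. Of all 12035 tested genes, 16.5% passed with edgeR and 4311 had an unadjusted edgeR p under 0.05. Of 4 genes for E-type and A-type cyclins and Cdk1, 0 passed the test with edgeR, 0 with DESeq2 and 0 with limma-voom, and 1 had an unadjusted edgeR p under 0.05. Ccne2, a cyclin partner of Cdk2, was at 10.8 and 14.6 CPM in the knockouts and 15.4, 16.9 and 19.4 CPM in the controls (log2 fold change -0.44, SE 0.18, edgeR adjusted p = 0.12; 0.08 once length and GC trends were taken out, and -0.67 with adjusted p = 0.039 without knockout replicate 2), and Cdk1 had a log2 fold change of 0.16. Of 3 genes for the retinoblastoma family, 0 passed with edgeR, DESeq2 or limma-voom and 0 had an unadjusted edgeR p under 0.05; Rb1 had a log2 fold change of -0.11 and Rbl2 one of -0.05. Of 10 E2F and DP factor genes 0 passed with the same tools and 1 had an unadjusted p under 0.05, with E2f7 at 0.36 (edgeR adjusted p = 0.13) and E2f8 at 0.30 (0.14), both atypical E2F factors that repress. Of 14 E2F targets needed for DNA synthesis, 0 passed with edgeR, DESeq2 or limma-voom and 2 had an unadjusted p under 0.05. Their median log2 fold change was 0.13, with Mcm5, a subunit of the replicative helicase, at 0.29 (edgeR adjusted p = 0.05007) and Tyms, thymidylate synthase, at 0.26 (0.13).

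Transcripts of Cdc25a and of the kinase complex that activates Cdk2 and Cdk4 were examined next. Of these 4 genes 2 fell, where 8.51% of all tested genes did. Ccnh, the cyclin of the complex, stood at 13.1 and 16.5 CPM in the knockouts and 18.3, 27.1 and 28.9 CPM in the controls. It fell 1.68-fold (edgeR adjusted p = 0.049). Mnat1, the assembly factor of the complex, fell 1.30-fold (edgeR adjusted p = 0.04959). It stood at 0.05 on the log2 scale once length and GC trends were taken out, where neither Mnat1 nor Ccnh passed. The kinase Cdk7 had a log2 fold change of -0.02, and Cdc25a, the phosphatase that activates Cdk2, one of 0.20; neither passed. Of these 4 genes, 0 were called lower without control replicate 2, control replicate 3 or knockout replicate 1; leaving out either of the remaining libraries kept 1. Over all tested genes, 16.5% passed with edgeR, and 4311 of 12035 had an unadjusted edgeR p under 0.05. Among 4 other inhibitors 0 passed with edgeR or DESeq2, 1 with limma-voom, and 2 had an unadjusted p under 0.05. They were Cdkn2b, at 2.08 and 2.80 CPM in the knockouts and 1.10, 0.152 and 0.531 CPM in the controls (edgeR adjusted p = 0.051), and Cdkn1a, the p53 target p21, at 5.44 and 5.45 CPM in the knockouts and 2.74, 3.95 and 2.05 CPM in the controls (0.074).

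Of 11 genes for the ubiquitin ligases that degrade G1 cyclins and p27Kip1, 3 fell and 1 rose, where 8.51% and 7.98% of all tested genes did. Skp1a, a shared adaptor, fell 1.56-fold, Cul1, the scaffold of the SCF ligases, 1.34-fold, and Cul3, the scaffold of another ligase family, 1.47-fold (edgeR adjusted p = 0.022, 0.022 and 0.024). Skp1a passed in 10 of 14 alternatives, and Cul1 and Cul3 in 8 of 14 each. Once length and GC trends were taken out, Skp1a kept its call and Cul1 and Cul3 lost theirs. Ambra1, the adaptor that marks D-type cyclins for degradation, stood at 89.9 and 73.2 CPM in the knockouts and 63.8, 58.4 and 57.2 CPM in the controls and rose 1.36-fold (edgeR adjusted p = 0.033). Its log2 fold change ran from 0.14 to 0.59 over the 14 alternatives, and its call was lost once length and GC trends were taken out. Skp2, which recognises p27Kip1, had a log2 fold change of 0.01. Without control replicate 2, control replicate 3 or knockout replicate 1 none of these 11 genes passed edgeR's threshold, and without knockout replicate 1 Ambra1 stood at a log2 fold change of 0.29, against 0.45 with it.

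Among 6 lens factors tied to cell-cycle exit, 2 rose and 1 fell, where 7.98% and 8.51% of all tested genes did. Pitx3, needed for the lens epithelium, rose 1.45-fold, with 149 and 148 CPM in the knockouts against 117, 103 and 87.1 CPM in the controls (edgeR adjusted p = 0.026). Its log2 fold change of 0.54 ran from 0.12 to 0.65 over the 14 alternatives. Gata3, without which mouse fibre cells do not leave the cycle, was at 86.2 and 69.9 CPM in the knockouts and 63.5, 53.4 and 56.9 CPM in the controls and rose 1.35-fold (edgeR adjusted p = 0.043). Maf, which drives fibre elongation and crystallin genes, was at 772 and 1030 CPM in the knockouts and 1277, 1267 and 1402 CPM in the controls and fell 1.46-fold (edgeR adjusted p = 0.035). Prox1, required in mice for Cdkn1b and Cdkn1c expression in fibres, was at 1320 and 1363 CPM in the knockouts and 1377, 1212 and 1201 CPM in the controls and did not pass (log2 fold change 0.09, SE 0.098, edgeR adjusted p = 0.56). Without control replicate 2, control replicate 3 or knockout replicate 1, 0 of the 6 passed. Leaving out knockout replicate 1 took the log2 fold change of Maf to -0.35 and that of Gata3 to 0.27, against -0.55 and 0.43 with it.

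**Figure D5:**
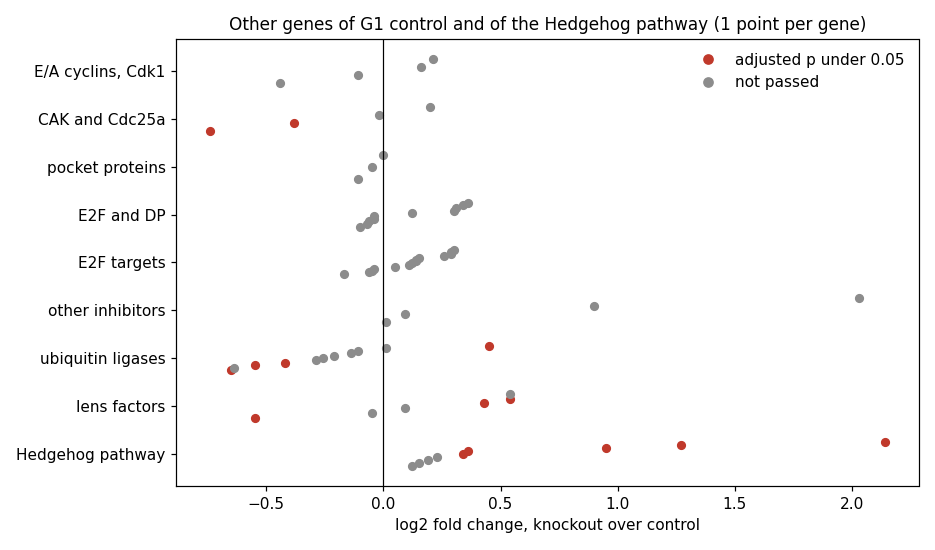
Log2 fold change, knockout over control (horizontal axis), of each tested gene in 9 lists of G1 control and the Hedgehog pathway (rows), with 1 point per gene; red marks an edgeR adjusted p under 0.05. None of the 10 E2F and DP genes and none of the 14 E2F targets was marked, and 5 of the 9 Hedgehog genes were, all to the right of 0.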

How the data were processed

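RNA sequencing counts of embryonic day 14 mouse lenses were analysed in 2 knockout and 3 control libraries, grouped by sample title. The authors deposited raw counts per gene symbol, per the file headers. Per the submitters' processing notes, which give neither role nor order, the tools were HTSeq 0.6.1, TopHat2 2.0.13, Trim Galore 0.3.7, DESeq2 and Cufflinks 2.2.1, and the genome build was mm10. The annotation, the strand setting and how symbols were chosen are not stated there.

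Counts were fitted in R 4.3.3 with edgeR 4.0.16 (filterByExpr with minimum count 10, TMM scaling, glmQLFit and glmQLFTest, no covariate), which removed 335 symbols. The Benjamini-Hochberg adjustment covered the 12035 genes left, and calls were made at 0.05. The SE was the log2 fold change over the square root of F, and intervals used the fit's degrees of freedom. Values are means or single libraries in CPM, and p-values measure the spread between pools. The biological coefficient of variation was 14.1%. No pair of libraries of a group agreed within sampling noise (chi-square over its degrees of freedom 9.98 to 23.4). The procedure was tested on simulated data.

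Positions and transcript lengths were looked up by symbol in GENCODE vM21, which uses GRCm38 (mm10). Alternatives were other scalings, filters, DESeq2 1.42.0, limma 3.58.1 (voom), each library left out, loess trends on length and GC content removed, and a replicate block. The genes, lists and tests were chosen with earlier results of these data known. Text names all 10 genes, the Myc family with Max, up to 4 called genes of each list (2 by smallest p where none passed), overlapping genes and nearest patterns; Ptch1, Gli2, Gli3, Cdk7, Cdc25a, Skp2 and Prox1 were added after their values were seen.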

Additional observations from a re-analysis of the deposited data

How the results depend on the processing

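Over all genes, 960 rose and 1024 fell. The counts were 1511 and 637 when libraries were scaled by their totals alone (70.3% higher, against 48.4%), 423 higher once length and GC trends were taken out, and between 21 and 1426 higher and between 17 and 1291 lower when 1 library was left out. The labels do not say that equal replicate numbers mark paired lenses, and deviations of same-numbered libraries correlated at -0.093 and 0.0073. With 2 knockout libraries the deviations of one mirror those of the other, so these values are not independent and cannot decide on pairing. With a replicate block 473 rose and 522 fell, and with the block and the trends removed 51 and 59. Of the 10 G1 genes, 1 then rose with the block, and 0 with the block and the trends removed, and 0 fell in both; the cause was not tested for any of these changes. The block gave Ccnd2 -0.59, Cdk2 0.38 and Ccnd3 -0.02, and the block with the trends removed gave Ccnd2 -0.65, Cdk2 0.46, Gas1 0.95, Ccnd3 -0.19 and Cdkn1c -0.0038. Gas1 passed with the block alone; none of these other values passed.

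With DESeq2, 1 of the 10 rose, since Cdk2 had 0.44 (adjusted p = 0.051). When 1 library was left out, 0 to 2 of the 10 rose and 0 to 2 fell. The log2 fold changes then ranged from -0.51 to 0.09 for Ccnd1, -0.65 to -0.38 for Ccnd2, -0.01 to 0.09 for Ccnd3, 0.34 to 0.52 for Cdk2, -0.03 to 0.05 for Cdk4, -0.32 to 0.03 for Cdk6, -0.44 to 0.02 for Cdkn2c and 0.86 to 1.64 for Gas1. Genes that did not pass changed sign with the trends removed: Ccnd3 (-0.17), Cdk4 (-0.0013) and Cdkn1c (-0.08).

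Between-group differences in shares were -4.96 points for Ccnd2, 2.28 for Cdk4 and 1.57 for Cdkn1c without division by length, and -5.67 for Ccnd2 and -0.0801 for Cdkn1c once trends were taken out (-7.08, 0.732 and 0.715 as reported).

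E-type and A-type cyclins called lower numbered 0, and 0 to 1 with 1 library left out. CDK-activating kinase genes called lower numbered 2, and 0 to 1 with 1 library left out and 0 with scaling by totals alone, length and GC trends removed, the block, block and trends removed, limma-voom and 1 with DESeq2 size factors in edgeR, DESeq2. Other inhibitors called higher numbered 0, and 0 to 1 with 1 library left out and 1 with scaling by totals alone, limma-voom. Ubiquitin ligase genes called higher numbered 1, and 0 to 1 with 1 library left out and 0 with length and GC trends removed, block and trends removed. Ubiquitin ligase genes called lower numbered 3, and 0 to 3 with 1 library left out and 0 with block and trends removed and 1 with length and GC trends removed, the block. E2F targets called higher numbered 0, and 1 with DESeq2 size factors in edgeR, library totals as the only scaling, a minimum of 1 CPM in 2 libraries. Lens factors called higher numbered 2, and 0 to 3 with 1 library left out and 0 with block and trends removed and 1 with length and GC trends removed, limma-voom. Lens factors called lower numbered 1, and 0 to 1 with 1 library left out and 0 with the block, block and trends removed. Hedgehog genes called higher numbered 5, and 1 to 5 with 1 library left out and 1 with the block, block and trends removed and 2 with length and GC trends removed and 3 with limma-voom.
Of 47 other named genes, signs turned for Ccne2 (0.08, and 0.10 with the block), Mnat1 (0.05), Mycl (-0.03 and -0.06), Rb1 (0.14 and 0.09), Gli2 (-0.09 and -0.06), Ptch1 (-0.06 and -0.07) and Cdk7 (0.26 and 0.20) with the trends removed, for Cdk7 also with library totals (0.06) and between leave-one-out values of -0.10 and 0.05, for Skp2 between leave-one-out values of -0.11 and 0.12, for Rbl2 with library totals (0.04) and between leave-one-out values of -0.13 and 0.03, and for 9330179D12Rik, a non-coding transcript antisense to Ccnd2, between leave-one-out values of -0.08 and 0.24. Over these genes, 508 of 655 values kept their direction and side of the threshold, 113 lost the call and 12 gained one. With 101 to 138 counts per library and 2 against 3 libraries, the interval of Cdkn2c spanned -0.61 to 0.23.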
